A study of Arabidopsis thaliana with 12 samples.

Results

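Nuclear genes for the photosystems and their light-harvesting antennae were followed in Arabidopsis thaliana seedlings of a pdx1.3 knockout (ko) line and in wild type (WT) seedlings, with leaves and roots apart. The genes were those whose description in the authors' annotation names a photosystem, light harvesting or chlorophyll binding, and whose probe set names a single nuclear locus. This gave 38 genes of the 21030 with a probe set of their own. A further 4 probe sets with such descriptions name several loci each and were kept apart. PDX1.3 encodes a catalytic subunit of the enzyme complex that makes vitamin B6 de novo, and the comparison asks how its loss alters transcript levels in each organ.

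The 12 samples form 4 groups of 3: pdx1.3 leaves, WT leaves, pdx1.3 roots and WT roots. Both genotypes are of the Col-0 ecotype, and the mutant is the pdx1.3 ko line of the labels, for which no allele is named. All seedlings were 10 days old and had grown on half-strength Murashige and Skoog medium with 1% sucrose and without added vitamin B6, under 16 h of light at 22 °C and 8 h of darkness at 18 °C, and leaves and roots were collected apart. The series design calls the samples biological replicates. Each was hybridised to an Affymetrix ATH1 array, which reads 1 colour and reports a transcript through a group of short probes called a probe set, and the 3 arrays per group limit the precision.

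Photosystems I and II are protein complexes of the thylakoid membrane in chloroplasts. They take up light through antennae of chlorophyll-binding proteins, LHCA for photosystem I and LHCB for photosystem II, and drive electrons from water to ferredoxin. The reaction centre proteins are made from plastid genes, while the antenna proteins, the oxygen-evolving proteins and many small subunits come from nuclear genes that are strongly expressed in green tissue under light. Roots that are lit can form some chloroplasts, so transcripts of these genes can also be found there.

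The set held 9 subunits of photosystem I, 4 LHCA and 6 LHCB antenna proteins, 3 proteins of the oxygen-evolving complex, 4 small subunits of photosystem II together with PSBS, the assembly factor PSB28, and 4 light-stress relatives of the antenna (ELIP1, ELIP2, SEP1 and SEP2). The other 6 were caught by their descriptions although they are not photosystem subunits. They are PETC, the Rieske protein of the cytochrome b6f complex, PSI-P, a thylakoid phosphoprotein also called CURT1B, and APO1 to APO4, a family named for a factor needed for photosystem I to accumulate.

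The targeted gene was examined first, because it checks the labels. PDX1.3 had signals of 40.5, 38.2 and 50.5 in pdx1.3 leaves, against 591, 942 and 935 in WT leaves, and 116, 95.8 and 82.1 in pdx1.3 roots, against 264, 282 and 282 in WT roots, so the genotypes did not overlap in either organ and the sample titles were borne out by the gene. The PDX1.3 probe set was still called present on every pdx1.3 array. A genotype entry elsewhere in the labels reads the opposite of the titles for all 12 samples and was not followed. The organs were checked by markers. All 11 measured root markers, among them the root hair gene EXPA7 and the Casparian strip gene CASP1, were called present on all 6 root arrays. SCR and PHO1 were also present on all 6 leaf arrays and SHR on 5, so these do not separate the organs. COBL9 and SMB were present on 1 leaf array each, and the other root markers on 0. Of 15 shoot markers outside photosynthesis, 10 were called present on 0 of the 6 root arrays, including FIL, YAB3 and TCP4, and the other 5, which were AS1, ATML1, PDF1, FDH and CUT1, on all 6. Among the 10, GL1 was present on only 3 and SPCH on only 1 of the 6 leaf arrays, so their absence in roots says little. The rest of the 15 were present on all 6 leaf arrays. Among the arrays, WT leaves replicate 1, pdx1.3 roots replicates 2 and 3 and WT roots replicate 1 stood apart for the 38 genes, as described below, and the calls and the sums over the 38 genes are given with and without them.

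Almost the whole set was far brighter in leaves than in roots. Of the 38 genes, 37 were higher in pdx1.3 leaves than in pdx1.3 roots and 1 was lower, where 22.2% of all probe sets were higher and 32.4% lower. In WT 35 were higher in leaves and 1 was lower, where 20.9% and 31.7% of all probe sets were. These calls come from limma fitted to log2(signal + 16) over all 12 arrays, with p-values adjusted by Benjamini-Hochberg over 22746 probe sets and a call at an adjusted p under 0.05. The median difference of leaves minus roots over the 38 genes was 5.15 on the log2 scale in pdx1.3 and 4.65 in WT, and over all probe sets it was -0.04 and -0.05.

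PSAD2, which forms part of the ferredoxin docking site of photosystem I, had the widest gap measured on both sides in WT. Its signals were 3399, 3398 and 3550.0 in pdx1.3 leaves, against 16.1, 17.2 and 27.7 in pdx1.3 roots, and 3678, 4135 and 4198 in WT leaves, against 29.2, 26.6 and 38.9 in WT roots. The leaves of both genotypes lay far above their roots, at log2 6.59 (SE 0.14, adjusted p = 1.42e-11) in pdx1.3 and log2 6.41 (SE 0.14, adjusted p = 1.36e-11) in WT. LHCA6, an antenna protein that helps join photosystem I to the NDH complex, was called absent on all 6 root arrays. Its mean signal was 1771 in pdx1.3 leaves against 3.95 in pdx1.3 roots, and 1671 in WT leaves against 3.40 in WT roots. The root values are near background, so no fold is given. PSAH2, a subunit at the site where the mobile antenna docks, differed by log2 6.67 (adjusted p = 3.80e-10) in pdx1.3 and log2 6.31 (adjusted p = 6.79e-10) in WT. LHCB2.3, an isoform of the main trimeric antenna, differed by log2 6.55 (adjusted p = 1.77e-10) in pdx1.3 and log2 6.28 (adjusted p = 2.77e-10) in WT. PSBTN, a low-mass subunit of photosystem II encoded in the nucleus, differed by log2 6.65 (adjusted p = 2.97e-10) in pdx1.3 and log2 6.17 (adjusted p = 6.38e-10) in WT.

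At the other end stood genes that are not photosystem subunits. APO4 was the one gene lower in leaves, with signals of 31.7, 20.7 and 24.0 in pdx1.3 leaves, against 53.9, 41.3 and 40.4 in pdx1.3 roots, and 26.0, 13.5 and 23.4 in WT leaves, against 37.3, 34.5 and 43.9 in WT roots, a difference of log2 -0.56 (adjusted p = 0.0106) in pdx1.3 and log2 -0.58 (adjusted p = 0.00996) in WT. APO3 had log2 0.43 (adjusted p = 0.0245) in pdx1.3 and log2 0.19 (adjusted p = 0.302) in WT, and the early light-induced protein ELIP1 had log2 1.204 (adjusted p = 0.0396) in pdx1.3 and log2 0.60 (adjusted p = 0.299) in WT. APO3 and ELIP1 therefore passed the test in pdx1.3 and did not in WT, while neither interaction passed (adjusted p = 0.719 and 0.785). SEP2, a stress-enhanced relative of the antenna, had log2 1.92 (adjusted p = 1.47e-05) in pdx1.3 and log2 1.15 (adjusted p = 0.00119) in WT. APO1, which acts in the splicing of chloroplast introns, had log2 1.55 (adjusted p = 5.00e-06) in pdx1.3 and log2 1.19 (adjusted p = 6.37e-05) in WT.

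Root signals were low but mostly detected. Apart from LHCA6, the mean root signal was between 0.589% (PSAD2) and 177% (APO4) of the mean leaf signal in pdx1.3, with a median of 2.54% over 37 genes. In WT it was between 0.788% (PSAD2) and 184% (APO4), with a median of 3.60%. The root signal was under 10% of the leaf signal for 30 of these genes in pdx1.3 and for 29 in WT. The authors' software called 31 of the 38 genes present on all 12 arrays. On single root arrays 33, 32 and 37 were present in pdx1.3, and 34, 37 and 36 in WT. The genes with an absent or marginal call somewhere were APO3, LHCA6, LHCB2.3, LHCB4.3, PSBO2, PSBP2 and PSBS.

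**Figure D1:**
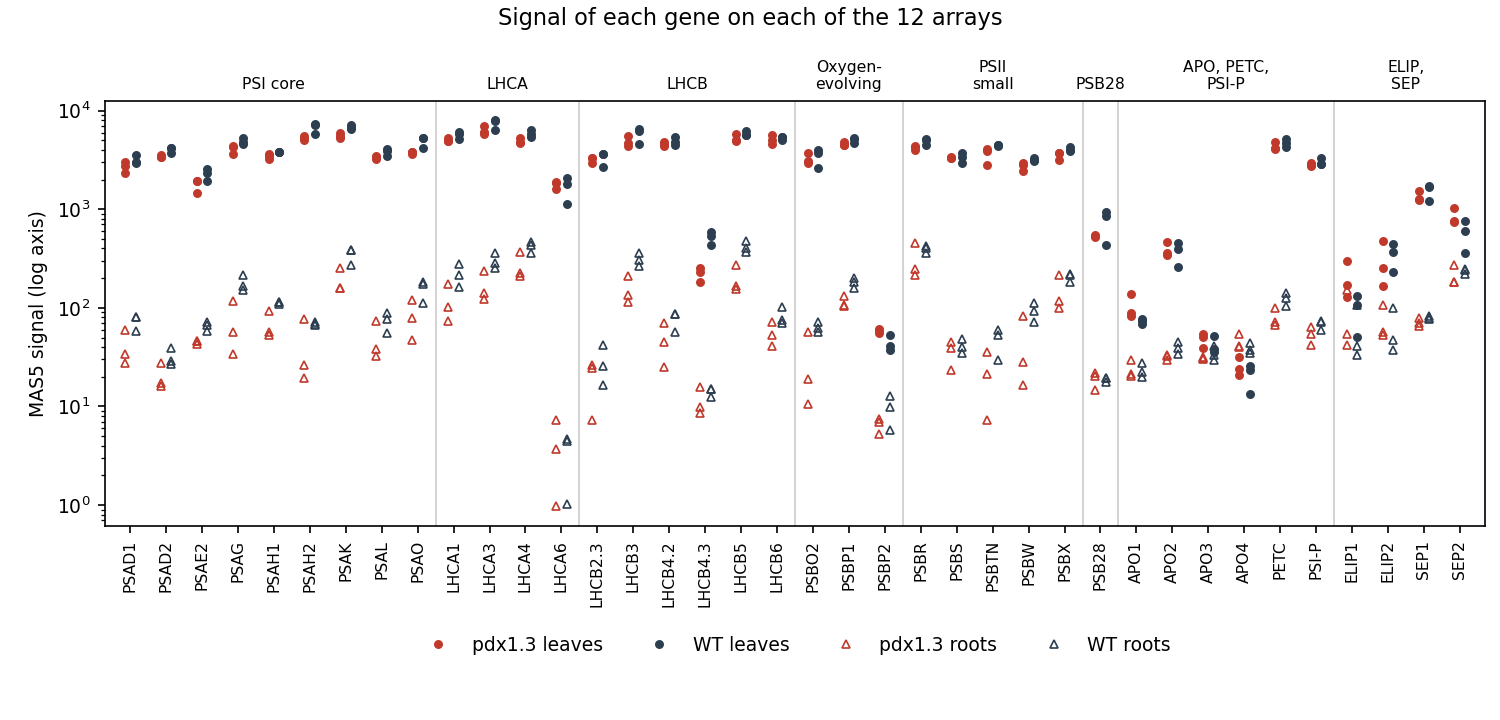
MAS5 signal (log axis) of each of the 38 genes on each of the 12 arrays, grouped by role, with filled circles for leaves, open triangles for roots, red for pdx1.3 and dark blue for WT, 3 points per group. For most genes the leaf points lie well above the root points, while for APO3 and ELIP1 they lie close together and for APO4 the root points lie higher.

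In leaves of pdx1.3 most of the set lay slightly below WT, and a single gene passed the test. LHCB4.3 was the only one of the 38 genes that passed the test, and it fell, where 2.51% of all probe sets were called lower and 4.7% higher. LHCB4.3, also called LHCB8, is the rarer isoform of the minor antenna protein CP29. Its signals were 184, 230.0 and 256 in pdx1.3 leaves, against 432, 530.3 and 591 in WT leaves. The highest mutant array thus lay well below the lowest WT array. The group means were 224 ± 36.5 in pdx1.3 leaves and 518 ± 80.1 in WT leaves (SD, n = 3 each), and limma gave log2 -1.16 (SE 0.16, adjusted p = 0.000977). The call held in each of the 12 fits with 1 array removed, at log2 -1.28 to -1.03, and the authors' deposited table lists a decrease in 9 of 9 array pairs.

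In roots LHCB4.3 was dim, with 9.92, 8.54 and 15.6 in pdx1.3 roots, against 12.5, 15.2 and 15.2 in WT roots, and it was called present on 2 of 3 arrays in each genotype. The root groups overlapped, and the difference was log2 -0.15 (adjusted p = 1). The difference between genotypes was larger in leaves than in roots by log2 -1.002 (SE 0.22, adjusted p = 0.0409), the only interaction among the 38 genes that passed, where 1.87% of all probe sets passed. Root signals of this gene lay below the constant of 16. With a constant of 1 the interaction was -0.87 (adjusted p = 0.246), and it was called in 2 of the 12 fits without 1 array (adjusted p up to 0.1004).

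LHCB4.2, the other CP29 isoform in the set, had 4589, 4418 and 4800.0 in pdx1.3 leaves, against 4517, 5398 and 4809 in WT leaves. The groups overlapped, and the difference was log2 -0.09 (adjusted p = 0.888). LHCB5, which is CP26, and LHCB6, which is CP24, the remaining minor antenna proteins, had log2 -0.15 (adjusted p = 0.736) and log2 -0.04 (adjusted p = 0.937) in leaves. LHCB3, a component of the trimeric antenna, had log2 -0.24 (adjusted p = 0.602). Of the 6 LHCB genes in the set only LHCB4.3 passed in leaves, and all 6 had a negative difference.

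**Figure D2:**
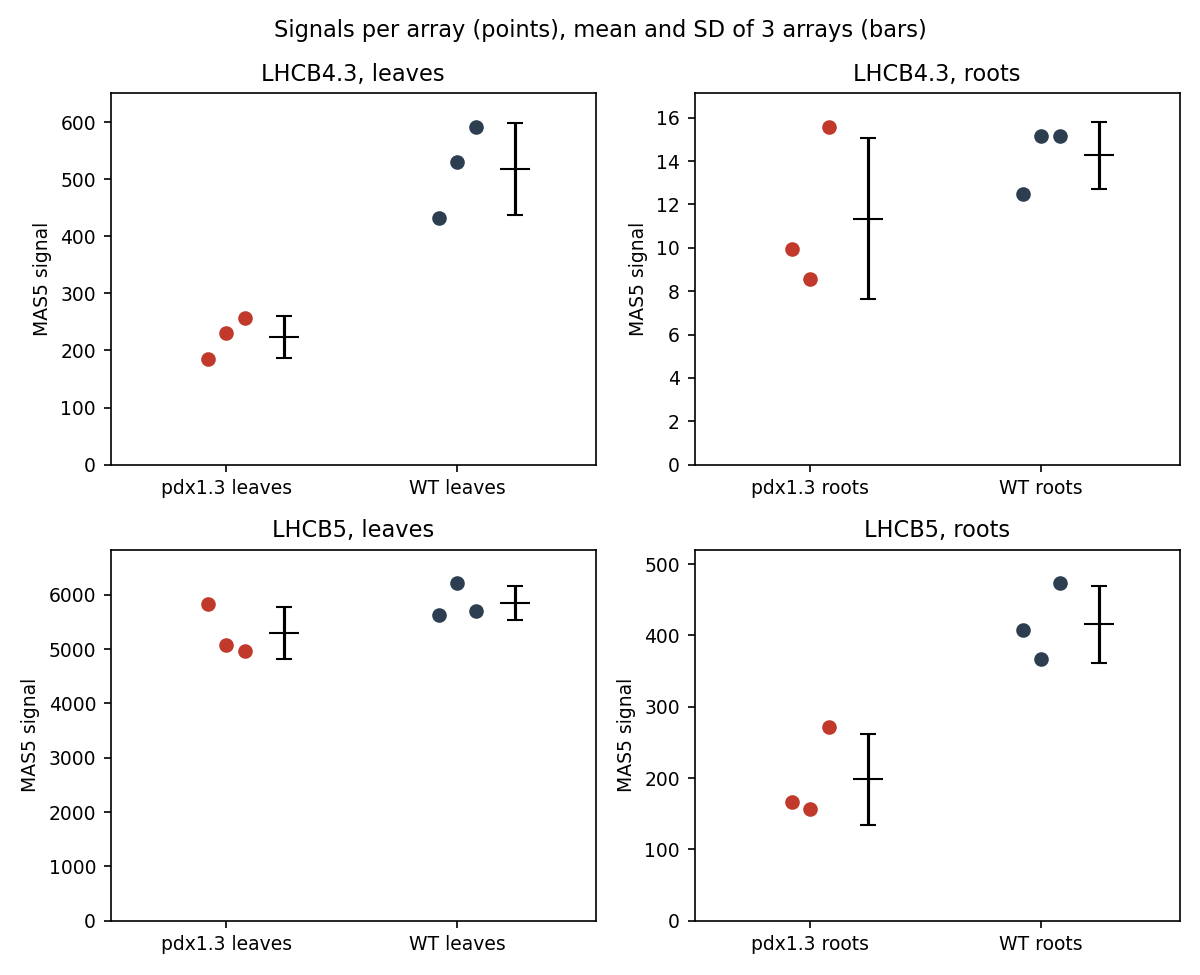
MAS5 signal of LHCB4.3 (upper panels) and LHCB5 (lower panels) on each array, with pdx1.3 left of WT, leaves in the left panels and roots in the right panels, each axis starting at 0 and scaled to its own panel. Points are arrays and bars the mean and SD of 3 arrays; the pdx1.3 points lie below the WT points for LHCB4.3 in leaves and for LHCB5 in roots, and they overlap WT for LHCB4.3 in roots and LHCB5 in leaves.

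None of the other genes of the set passed the test in leaves. The median difference of pdx1.3 minus WT was -0.17 on the log2 scale over the 38 genes and 0.01 over all probe sets, with 29 differences negative and 9 positive. With quantile normalization the median over the 38 genes was -0.04. In 14 of the 38 genes every mutant leaf array lay below every WT leaf array, and in 2, APO1 and PSBP2, above, where 10.2% and 14.4% of all probe sets did so. At an unadjusted p under 0.05 in limma, however, only 2 of the 38 genes were lower and 3 higher, where 8.74% and 12.5% of all probe sets were. All 9 photosystem I subunits had a negative difference, of -0.39 to -0.16, and none passed. PSAE2, which with PSAD forms the ferredoxin docking site, had 1455, 1925 and 1942 in pdx1.3 leaves, against 1945, 2537 and 2339 in WT leaves, with no overlap, and log2 -0.36 (adjusted p = 0.17). PSAO, a small subunit that takes part in docking the mobile antenna, had 3805, 3595 and 3824 in pdx1.3 leaves, against 4189.7, 5277 and 5327 in WT leaves and log2 -0.39 (adjusted p = 0.409). In both genes the dimmest WT array was replicate 1.

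Of the LHCA genes in leaves, LHCA4 had log2 -0.23 (adjusted p = 0.565) and LHCA3 log2 -0.24 (adjusted p = 0.593), and LHCA6 was at log2 0.12 with overlapping groups. PSBP2, a second isoform of the extrinsic protein PSBP of the oxygen-evolving complex, had 55.7, 59.5 and 60.9 in pdx1.3 leaves, against 37.0, 40.6 and 53.1 in WT leaves, with no overlap, and log2 0.33 (adjusted p = 0.176). The dominant isoform PSBP1 had log2 -0.14 (adjusted p = 0.631). The small subunits PSBTN and PSBR, of which PSBR stabilises the oxygen-evolving complex, had log2 -0.31 (adjusted p = 0.57) and log2 -0.20 (adjusted p = 0.67). PSB28, an assembly factor of photosystem II, had 532, 520.0 and 552 in pdx1.3 leaves, against 438, 853 and 926 in WT leaves, so WT replicate 1 lay below the mutant arrays and the other WT arrays above them. Its difference was log2 -0.39 (adjusted p = 0.35), and -0.72 without WT leaves replicate 1, where it passed.

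The light-stress relatives did not share a direction in leaves. ELIP1, which is thought to bind free pigment under light stress, had 129.9, 295 and 170.0 in pdx1.3 leaves, against 50.5, 106 and 133 in WT leaves, and log2 0.94 (adjusted p = 0.265). The groups overlapped and both spread widely. SEP2 had 768, 749.8 and 1031 in pdx1.3 leaves, against 358, 599 and 756 in WT leaves, and log2 0.61 (adjusted p = 0.162). ELIP2 and SEP1 had differences of -0.28 and -0.19. Among the remaining genes APO1 had 137, 88.1 and 82.7 in pdx1.3 leaves, against 77.7, 69.2 and 74.1 in WT leaves, with no overlap, and log2 0.38 (adjusted p = 0.233), and APO4 log2 0.17 (adjusted p = 0.625). None of these passed the test.

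Summed over the 38 genes, the signal was 111565, 107664 and 113702 in pdx1.3 leaves and 113854, 134903 and 131072 in WT leaves. The mutant sums lay below all WT sums at 87.7% of the WT mean, with an exact two-sided permutation p of 0.1, the smallest that 3 against 3 arrays allow. The gap to WT leaves replicate 1 was small, and that array was the dimmest of its group for 30 of the 38 genes, where it was the dimmest for 33.5% of all probe sets. On the log2 scale the sum differed by -0.19, and by -0.26 without WT leaves replicate 1. Such a sum is weighted towards the bright probe sets. In tissue samples like these, fewer cells of a type and less RNA per cell cannot be told apart.

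In pdx1.3 roots most of the set lay below WT, and a single gene passed the test. LHCB5, the minor antenna protein CP26, fell, where 0.312% of all probe sets were called lower and 0.497% higher. Its signals were 167, 156 and 272 in pdx1.3 roots, against 407, 367 and 473 in WT roots. No mutant array reached the lowest WT array, and pdx1.3 replicate 3 was the brightest of the mutant arrays. The means were 198 ± 63.7 in pdx1.3 roots and 416 ± 53.8 in WT roots (SD, n = 3 each), and limma gave log2 -1.04 (SE 0.19, adjusted p = 0.0229). The call was kept in 7 of the 12 fits without 1 array and was lost without pdx1.3 roots replicate 1 or 2 or any one of the WT root arrays, at adjusted p up to 0.155. Fitted on the root arrays alone it had an adjusted p of 0.130. In leaves LHCB5 had overlapping signals of 5838, 5081 and 4955 in pdx1.3 leaves, against 5633, 6211 and 5709 in WT leaves, and the interaction was log2 0.90 (adjusted p = 0.126).

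Over the 38 genes the median difference in roots was -0.51 on the log2 scale, against 0.01 over all probe sets. It was negative for 32 genes and positive for 6, while 45.8% of all probe sets had a negative difference. At an unadjusted p under 0.05, 22 of the 38 genes were lower and 0 higher, where 3.22% and 3.63% of all probe sets were. In 11 of the 38 genes every mutant root array lay below every WT root array, and in 0 above, where 5.32% and 5.77% of all probe sets did so. By the authors' deposited table, a decrease in at least 7 of the 9 array pairs in roots was found for 16 of the 38 genes, where it was for 1.93% of all probe sets. Of these, 6 also had a GCOS fold change of at least 2 in the authors' deposited table, which were PSAD1, PSAG, PSAH2, LHCB3, PSBTN and PSBW, where 0.712% of all probe sets met both limits. By the other fold change column of the authors' deposited table this held for 7 genes, with PSAO and LHCB5 added and PSAD1 lost, where 0.747% of all probe sets did.

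**Figure D3:**
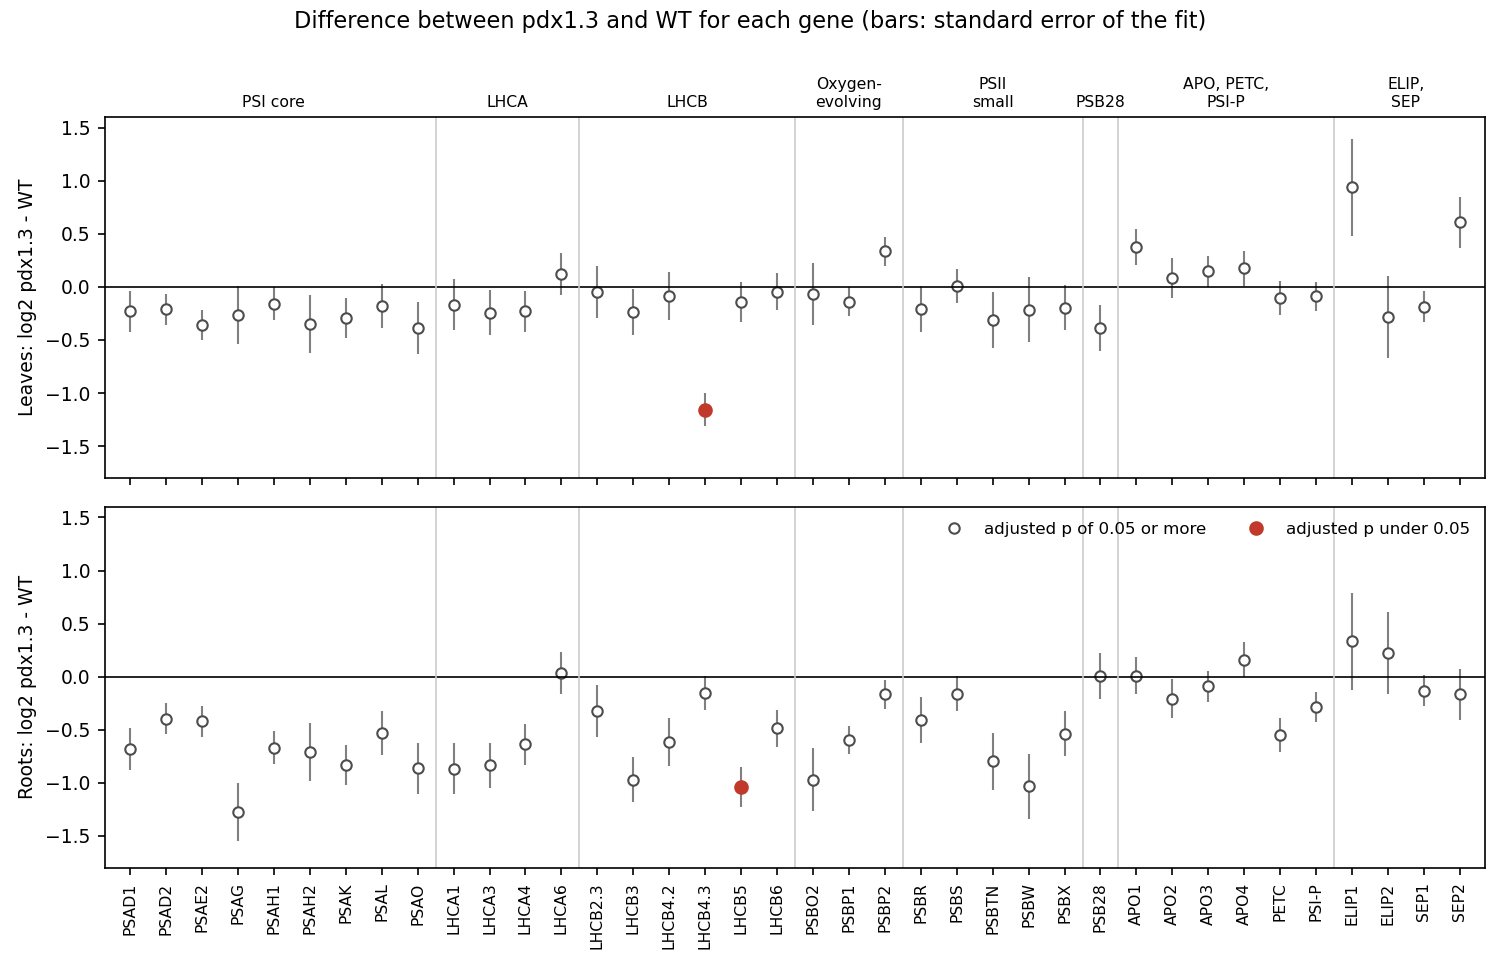
Difference of pdx1.3 minus WT in log2(signal + 16) for each of the 38 genes, leaves in the upper panel and roots in the lower, grouped by role, with bars for the standard error of the fit and red for an adjusted p under 0.05. In leaves most genes lie below 0, with LHCB4.3 lowest and ELIP1 highest. In roots most antenna and photosystem subunits lie between -1.28 and -0.32 while the ELIP, SEP, APO genes and PSB28 lie nearer to 0 or above it.

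The 9 photosystem I subunits all had negative differences in roots, with a median of -0.68, and none passed. PSAG, a peripheral subunit that helps to bind the antenna, had 56.6, 34.1 and 117 in pdx1.3 roots, against 151, 165 and 213 in WT roots, with no overlap. Its difference of log2 -1.28 (SE 0.27, adjusted p = 0.0551) was the largest of the 38 genes in roots and missed the threshold. PSAK, on the opposite side of the complex, had 159, 157 and 256 in pdx1.3 roots, against 271, 387 and 386 in WT roots, and log2 -0.83 (adjusted p = 0.0767). PSAH1, which takes part in docking the mobile antenna, had 56.2, 53.3 and 91.9 in pdx1.3 roots, against 115, 111 and 115 in WT roots, and log2 -0.67 (adjusted p = 0.0779). In all of these pdx1.3 replicate 3 was the mutant array nearest to WT, and it stayed below the lowest WT array.

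PSAH2, the second gene for the same subunit, differed in this respect. It had 26.2, 19.3 and 77.7 in pdx1.3 roots, against 72.3, 68.2 and 66.6 in WT roots, so that pdx1.3 replicate 3 was the brightest of the 6 arrays while the other mutant arrays lay far below WT, and the fit gave log2 -0.71 (adjusted p = 0.501). PSAE2 was the one photosystem I gene whose mutant arrays lay together, at 45.5, 46.5 and 43.0 in pdx1.3 roots, against 57.9, 72.1 and 67.7 in WT roots, and log2 -0.42 (adjusted p = 0.383). The remaining subunits ranged from -0.86 for PSAO to -0.39 for PSAD2. The summed signal of the 9 genes was 509, 435 and 866 in pdx1.3 roots, against 923, 1163 and 1237 in WT roots, a mean of 54.5% of WT with no overlap (exact permutation p = 0.1).

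In the antenna of photosystem I, 3 of 4 genes had negative differences in roots and none passed. LHCA3 had 141, 123 and 235 in pdx1.3 roots, against 255, 288 and 364 in WT roots, with no overlap, and log2 -0.84 (adjusted p = 0.127). LHCA1 had 103, 73.0 and 174 in pdx1.3 roots, against 164, 215 and 275 in WT roots, and log2 -0.87 (adjusted p = 0.177). Here pdx1.3 replicate 3 lay just above WT replicate 1, so the groups overlapped. LHCA4 had log2 -0.64 (adjusted p = 0.247), and LHCA6, absent on all root arrays, has no measured difference in roots.

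Among the antenna proteins of photosystem II, all 6 differences were negative in roots and LHCB5 was the one call. LHCB3 had 136, 113 and 212 in pdx1.3 roots, against 264, 303 and 361 in WT roots, with no overlap, and log2 -0.97 (adjusted p = 0.0659). LHCB4.2 had log2 -0.62 (adjusted p = 0.449), LHCB6 log2 -0.49 (adjusted p = 0.427) and LHCB2.3 log2 -0.32 (adjusted p = 1). The 6 LHCB genes summed to 425, 363 and 666 in pdx1.3 roots, against 829, 873 and 1079.9 in WT roots. This was 52.3% of the WT mean, with no overlap (exact permutation p = 0.1). The root sum of the oxygen-evolving genes was 58.8% of the WT mean, also with no overlap (exact permutation p = 0.1). The sums overlapped for LHCA, at 59.2% (exact permutation p = 0.2). They also overlapped for the small subunits of photosystem II with PSBS, at 70.5% (exact permutation p = 0.3). The probe sets that name several loci were not members but had differences of the same sign in roots, at -1.198 for LHCB1.1 to LHCB1.3 together, -1.32 for LHCB2.1 and LHCB2.2 together, -0.74 for LHCB1.4 and LHCB1.5 together and -0.74 for LHCA2 with a second locus, at adjusted p of 0.130 to 0.224.

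In the oxygen-evolving complex, PSBP1 had 108, 104 and 132 in pdx1.3 roots, against 158, 185 and 202 in WT roots, with no overlap, and log2 -0.60 (adjusted p = 0.0666). PSBO2, one of the manganese-stabilising proteins, had 18.9, 10.6 and 56.9 in pdx1.3 roots, against 57.0, 62.7 and 72.4 in WT roots. Replicate 3 of the mutant came within reach of the dimmest WT array while the other mutant arrays were far below, and the fit gave log2 -0.97 (adjusted p = 0.244), with present calls on 1 of 3 mutant and 2 of 3 WT root arrays. PSBP2 was near background in roots and had log2 -0.16 (adjusted p = 1).

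The small subunits of photosystem II varied most among the mutant root arrays. PSBW had 28.5, 16.3 and 83.1 in pdx1.3 roots, against 71.6, 92.1 and 113 in WT roots, and log2 -1.03 (adjusted p = 0.222). PSBTN had 21.5, 7.34 and 35.3 in pdx1.3 roots, against 29.5, 52.9 and 59.1 in WT roots, and log2 -0.80 (adjusted p = 0.342). PSBR had 249.7, 217 and 456 in pdx1.3 roots, against 356, 419.9 and 408 in WT roots, and log2 -0.41 (adjusted p = 0.855). In PSBR the third mutant array exceeded all WT arrays, and in PSBW and PSBTN it lay within the WT range. PSBX had log2 -0.54 (adjusted p = 0.525), and PSBS, the sensor of excess light that quenches energy in the antenna, had log2 -0.16 (adjusted p = 1).

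The genes outside the photosystem subunits had root differences of -0.55 to 0.33, and none passed. PETC had 67.6, 71.1 and 99.96 in pdx1.3 roots, against 104, 125 and 141 in WT roots, with no overlap, and log2 -0.55 (adjusted p = 0.202). PSI-P had 54.4, 42.3 and 63.97 in pdx1.3 roots, against 59.1, 71.7 and 74.3 in WT roots, and log2 -0.29 (adjusted p = 0.779). SEP1 had log2 -0.13 (adjusted p = 1), ELIP1 log2 0.33 (adjusted p = 1) and PSB28 log2 0.01 (adjusted p = 1). The 4 ELIP and SEP genes summed to 364, 343 and 612 in pdx1.3 roots, against 399, 410 and 506 in WT roots, which is 100.4% of the WT mean (exact permutation p = 1). ELIP1 had 54.2, 42.2 and 153 in pdx1.3 roots, against 41.0, 33.4 and 107 in WT roots, so that replicate 3 was the brightest array in both genotypes.

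The root arrays of 1 genotype differed from each other across the set. Relative to the WT root mean of each gene, the median over the 38 genes was -0.65, -0.77 and -0.11 on the log2 scale in pdx1.3 roots replicates 1, 2 and 3, against -0.18, 0.02 and 0.16 in WT roots. Over all probe sets these medians lay between -0.02 and 0.03. In pdx1.3 roots replicate 3 was the brightest mutant array for 32 of the 38 genes, where it was for 31.5% of all probe sets, and replicate 2 was the dimmest mutant array for 30, where it was for 36.9%. In WT roots replicate 3 was the brightest WT array for 27 genes, and replicate 1 the dimmest for 29, where these shares were 44.4% and 42.9% over all probe sets. The summed signal of the 38 genes was 2646, 2292 and 4273 in pdx1.3 roots, against 4129.6, 4817 and 5446 in WT roots, so pdx1.3 replicate 3 lay just above WT replicate 1. The mutant mean was 63.99% of the WT mean (exact permutation p = 0.2). On the log2 scale the sum differed by -0.69, by -0.95 without pdx1.3 roots replicate 3, by -0.50 without pdx1.3 roots replicate 2 and by -0.79 without WT roots replicate 1.

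**Figure D4:**
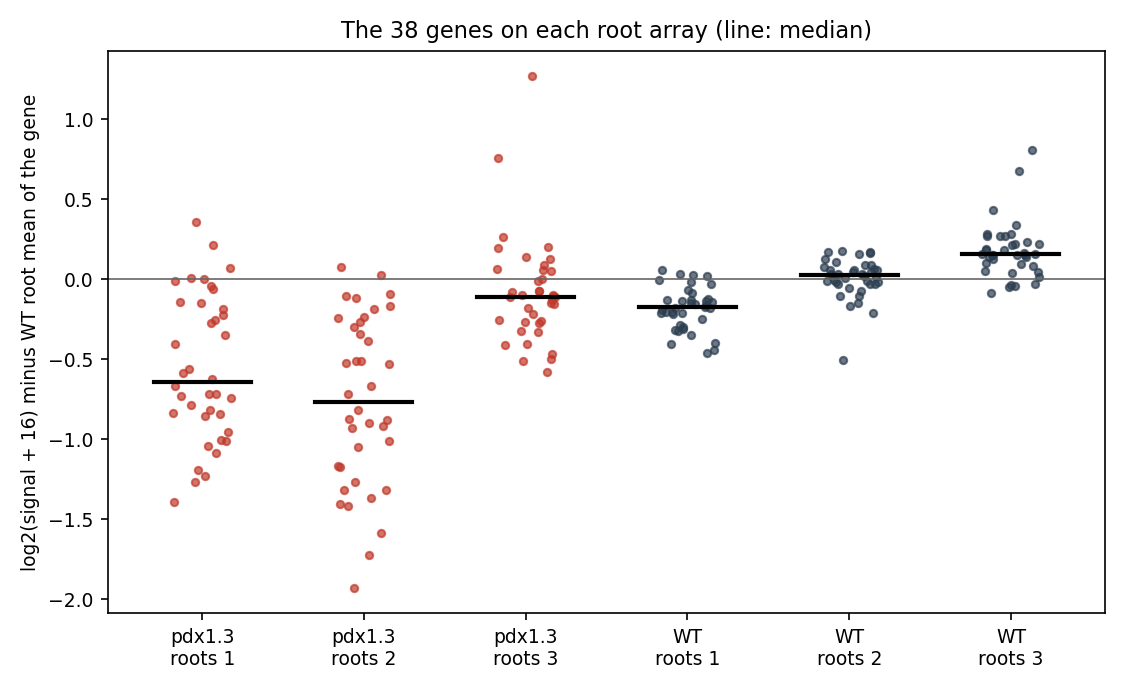
Each point is 1 of the 38 genes on 1 root array, as log2(signal + 16) minus the mean of the 3 WT root arrays for that gene, with pdx1.3 arrays left of WT arrays and a black line at the median. The medians of pdx1.3 replicates 1 and 2 lie at -0.65 and -0.77, and that of replicate 3 at -0.11 lies within the WT arrays' range of -0.18 to 0.16.

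Without pdx1.3 roots replicate 3, 17 of the 38 genes passed in roots and all 17 were lower, where 0.901% of all probe sets were called lower. PSAG then had a difference of -1.66 (adjusted p = 0.00114), LHCB5 of -1.27 (adjusted p = 0.00164), PSBW of -1.50 (adjusted p = 0.00184) and PSAH2 of -1.14 (adjusted p = 0.00216). These fits leave 2 mutant root arrays, whose spread is taken with that of the other groups. Without pdx1.3 roots replicate 1 or 2, or without WT roots replicate 1, 2 or 3, limma called 0 of the 38 genes, where 0.123%, 0.145%, 0.207%, 0.11% and 0.281% of all probe sets were called lower. At an unadjusted p under 0.05 these 5 fits gave 17, 16, 22, 19 and 17 of the 38 genes as lower, where 2.65%, 2.04%, 3.21%, 2.32% and 3.48% of all probe sets were. The number of root calls in this set thus rested on which array was in the fit.

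The 3'/5' signal ratio of actin, which is lower for intact RNA, was 2.97, 3.99 and 6.59 in pdx1.3 roots replicates 1, 2 and 3, against 4.90, 4.45 and 6.40 in WT roots. Replicate 3 was thus highest in both genotypes, as it was for the summed signal of the 38 genes, and the part of this ratio in the result was not tested. In leaves the ratios were 3.12, 5.94 and 8.71 in pdx1.3, against 8.27, 6.76 and 5.36 in WT. The 15 shoot markers summed to 423, 470 and 480 in pdx1.3 roots, against 512, 387 and 473 in WT roots, and none was called in roots (0 at an unadjusted p under 0.05). Most of that sum came from the 5 markers present on every root array. The other 10, absent or marginal there, summed to 28.9, 24.6 and 22.3 in pdx1.3 roots, against 30.6, 21.8 and 31.6 in WT roots, and to 771, 749.9 and 644 in pdx1.3 leaves, against 514, 669 and 702 in WT leaves. In leaves all 15 summed to 3744, 2875 and 2717 in pdx1.3, against 1903, 2364 and 2629 in WT, with no overlap. There 4 of the 15 were called higher and 1 lower, where 4.7% and 2.51% of all probe sets were. A small share of shoot tissue would not be seen in such sums over root arrays, and its part in the root differences was not tested. The 11 root markers summed to 2485, 2604 and 2162 in pdx1.3 roots, against 2834, 2607 and 2250.0 in WT roots, and none was called (2 at an unadjusted p under 0.05).

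For the difference between organs, 34 of the 38 interactions were positive and 4 negative, with a median of 0.42 on the log2 scale against 0.00 over all probe sets. A positive value means that the mutant was lower relative to WT in roots than in leaves. None of the 34 passed the test (7 at an unadjusted p under 0.05, where 7.76% of all probe sets were positive at that threshold). Without pdx1.3 roots replicate 3 the test called 5 of them, PSAG, PSAH1, LHCB5, PSBO2 and PSBW, where 1.52% of all probe sets were called higher. On all arrays PSAG had log2 1.02 (adjusted p = 0.255), PSBO2 log2 0.90 (adjusted p = 0.379) and LHCB5 log2 0.90 (adjusted p = 0.126). With all arrays, LHCB4.3 was the only one of the 38 genes whose interaction passed, where 1.87% of all probe sets did.

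Other genes of photosynthesis also had mostly negative differences in roots, with few calls. Of 43 further photosystem and antenna loci, which the description rule did not take, 34 were measured, and 29 had a negative difference in roots. PSBQ2, an extrinsic protein of the oxygen-evolving complex, was the only one called there, and it fell, where 0.312% of all probe sets were called lower. It had 32.2, 26.7 and 50.7 in pdx1.3 roots, against 69.1, 79.9 and 80.8 in WT roots, and log2 -0.84 (adjusted p = 0.0266). In leaves LHCB7, a rare antenna protein, rose by log2 0.85 (adjusted p = 0.00486), and PSA3, an assembly factor of photosystem I, fell, with log2 -0.48 (adjusted p = 0.0459). These were 1 call higher and 1 lower among the 34, where 4.7% and 2.51% of all probe sets were called. Of 16 measured genes of carbon fixation 11 were negative in roots and 1 was called lower, where 0.312% of all probe sets were. This was FBA2, a plastid aldolase, with 29.5, 20.3 and 50.2 in pdx1.3 roots, against 79.4, 90.7 and 129.7 in WT roots, and log2 -1.25 (adjusted p = 0.0163). Both PSBQ2 and FBA2 had every mutant root array below every WT root array. None of the 9 genes of electron carriers and cytochrome b6f, the 3 of the chloroplast ATP synthase or the 14 of chlorophyll synthesis was called in either organ, with 3, 0 and 0 of them at an unadjusted p under 0.05 in leaves and 5, 1 and 4 in roots, where 21.2% and 6.85% of all probe sets were.

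Regulators of photosynthesis genes were mostly higher in pdx1.3 leaves. Of 13 measured, 12 had a positive difference and 7 rose in pdx1.3 leaves, where 4.7% of all probe sets were called higher, and none was called in roots (0 at an unadjusted p under 0.05). CGA1, a GATA factor that promotes chloroplast development, had 95.8, 91.7 and 103 in pdx1.3 leaves, against 56.5, 59.0 and 55.1 in WT leaves, and log2 0.63 (adjusted p = 0.00295). SIG5, a sigma factor of the plastid RNA polymerase, had 733, 505 and 647 in pdx1.3 leaves, against 193, 269 and 325 in WT leaves, and log2 1.22 (adjusted p = 0.0102). PIF4, a phytochrome-interacting factor, had 382, 278 and 250.3 in pdx1.3 leaves, against 169, 166 and 173 in WT leaves, and log2 0.76 (adjusted p = 0.0107). In all of these the mutant leaf arrays lay above the WT leaf arrays without overlap. The 9 photosystem I and 6 LHCB genes of the set had negative differences on the same arrays, of which only LHCB4.3 passed. A relation between the regulators and these genes was not tested.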

How the data were processed

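Labelled cRNA from 500 ng of total RNA per sample was hybridised to 12 arrays, 3 per group, per the labels' protocols. Groups and replicate numbers follow the sample titles. Per the submitters' processing notes the authors used MAS5 and GCOS, with no version named. The deposited signal intensities are linear, and the authors had scaled each array to a common trimmed mean. The authors also deposited present, marginal and absent calls, the number of 9 array pairs with a change call, signed fold changes (score values) and unadjusted p-values.

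Intensities were used as deposited, from the table with more decimals, since 2 deposited tables differ for 204 of 456 values of the 38 genes by more than 0.051 (largest difference 0.861). After 64 control probe sets were left out, 22746 probe sets were tested with limma 3.58.1 in R 4.3.3 on log2(signal + 16), with 1 mean per group over all 12 arrays, a variance trend and Benjamini-Hochberg adjustment. The constant understates changes of dim genes. A call is an adjusted p under 0.05. Standard errors come from the fit and standard deviations from 3 arrays. Sums were compared by an exact two-sided permutation test over arrays (scipy 1.17.1), with 20 arrangements. For a gene absent on all arrays of a group, the mean signals are given and no fold.

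All 38 genes were found in the RefSeq gene table of TAIR10.1, which gave the symbols. No locus had more than 1 probe set of its own. The members, roles, pathway lists and markers were chosen with earlier results of these data known. The genes named are the members with a call in a genotype comparison or the interaction, those with the smallest p in each role, and the extremes of the difference between organs. Up to 3 genes with the smallest p are named for each pathway list, besides PDX1.3. Other members are given in passing. The same script was tested on simulated data. Alternatives were quantile normalization, centring, other constants, a filter on present calls, the other table, fewer arrays, other variance models and a replicate block. Promoter and protein sequences were not analysed here, and coordinates are not given because no build is named. No other mutant line or rescue is in the data, so loss of PDX1.3 and other differences between the lines cannot be told apart.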

Additional observations from a re-analysis of the deposited data

Results flagged for a closer look

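LHCB4.3 was the one gene of the set for which the test found different genotype effects in the 2 organs, with an interaction of -1.002 on the log2 scale. Over all probe sets 1.87% passed, so 1 call among 38 genes is near that share. The call was kept in 2 of the 12 fits without 1 array. The mutant was lower than WT by a log2 difference of -1.16 in leaves and of -0.15 in roots, where the signals were near the constant added before log2. The part of these low root signals in the interaction was not tested beyond the constants given in the next paragraphs.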

How the results depend on the processing

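In leaves 1 gene passed in every alternative except without WT leaves replicate 1, and the fits without 1 array gave 1 to 2. Of all probe sets 1642 passed in leaves with the settings of the report, and 516 to 1838 in the alternatives. In roots 1 gene passed with the settings of the report, 3 with quantile normalization, 2 with each array centred on its median, 5 with only probe sets present on all arrays of a group (16873 probe sets, 37 of the genes), 0 with only the groups compared, 2 without a variance trend and 0 to 17 in the fits without 1 array, with 17 only without pdx1.3 roots replicate 3. The interaction gave 1 (425 of all probe sets), 0 with a constant of 1 (248) and 0 to 5 in the fits without 1 array. The 5, found without pdx1.3 roots replicate 3 where 554 of all probe sets passed, were PSAG, PSAH1, LHCB5, PSBO2 and PSBW. The cause of these changes was not tested. The summed leaf signal of pdx1.3 over WT was -0.19 on the log2 scale and -0.29 with each array divided by its median signal. Over these alternatives the median of the genes in roots kept its sign, between -0.69 and -0.35 in the fits without 1 array.

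Same-numbered arrays of the genotypes did not deviate together over all probe sets (r = -0.21 to -0.01), while over the 38 genes r was 0.28, 0.10 and 0.19 in leaves and -0.07, 0.11 and 0.40 in roots for replicates 1, 2 and 3. Over all probe sets 0 of 6 arrays in either organ correlated best with their own number. With the replicate block 2 genes passed in roots (147 of all probe sets), PSAG being added. The counts in leaves (1372 of all probe sets) and for the interaction (338) stayed at 1. Taking the mean of all probe sets of a locus changes nothing here, since no locus had several. Precision is limited by 3 arrays per group, and by root signals near background for LHCA6, LHCB4.3, PSBP2 and LHCB2.3.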
